A study of Mus musculus with 15 samples.

Results

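Primary mouse articular chondrocytes, the cells that make and maintain the matrix of joint cartilage, were exposed to the tankyrase inhibitor XAV939 or to its solvent DMSO, and the comparison asks which genes differ between the 2 conditions across the whole transcriptome. It rests on 6 of the 15 libraries of the series, 3 with XAV939 and 3 with DMSO, and on the 13873 of 24134 listed genes that passed a filter on low counts. All cells came from newborn mice of the ICR stock, 4 to 5 days old, and were used at passage 0 in medium with fetal bovine serum. The XAV939 group received 10 μM of the drug for 108 h and the DMSO group received solvent for the same time. No group carries a transgene or a deletion. The methods call the replicates biological, and the number of animals behind each library is not given in the sources used here, so p-values measure the spread between these libraries. Each XAV939 library was paired with the DMSO library of the same replicate number. A further 3 libraries, treated with another tankyrase inhibitor, IWR-1, entered the filter, the scaling and the estimates of the spread and of the replicate effects. With the 6 libraries alone 13631 genes passed the filter.

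Tankyrases are enzymes of the poly(ADP-ribose) polymerase (PARP) family that attach chains of ADP-ribose to other proteins, which usually marks these for degradation. Among their known substrates are axin, the scaffold of the complex that degrades β-catenin in Wnt signaling, and the angiomotins, which bind the transcriptional coactivator YAP. In cartilage, chondrocytes live at low oxygen without blood vessels, and when they are isolated and grown flat they tend to lose cartilage matrix genes and to gain fibroblast-type, contractile and inflammatory genes.

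Values are given in CPM, the share of a library's counts scaled to 1e+06, after adjustment by the trimmed mean of M values (TMM), always in the order of replicates 1, 2 and 3. A change is the log2 fold change of XAV939 over DMSO ± a standard error, with the adjusted p-value of edgeR's quasi-likelihood test over all genes tested. The standard error was derived from that test, as the size of the log2 fold change over the square root of the test's F statistic. A gene is called, and said to rise or fall, where that p-value was under 0.05. Counts of list members that rose are to be read against 16% of all genes tested, and counts that fell against 17.4%. Where the call was lost when the replicate numbers were ignored, the adjusted p without the pairing is given as well.

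Library totals ranged from 27438611 to 36615194 counts, and the 10 most abundant genes took between 13.22% and 16.7% of them. The summed level of 14 chondrocyte markers was 29020, 39490 and 30530 CPM with DMSO and 45310, 61720 and 41260 CPM with XAV939, so the markers that define the labelled cell type were abundant in all 6 libraries. Markers of blood and vessel cells were close to absent. The 12 leukocyte markers, 2 of them without any count, summed to between 12.6 and 18.0 CPM per library, the 7 endothelial markers, 1 without any count, to between 0.826 and 1.67 CPM, and the 6 erythroid markers, 4 without any count, to at most 0.0539 CPM. Fibroblast and synovial markers stood higher in replicate 3 of both conditions, at 1446 and 1333 CPM, than in the other 4 libraries, at 407 to 738 CPM.

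XAV939 acts on the tankyrase proteins, so the transcripts of its targets are no check of the treatment. *Tnks*, which encodes tankyrase 1, was measured at 26.2, 20.0 and 64.1 CPM in the DMSO libraries and 13.6, 26.4 and 26.9 CPM in the XAV939 libraries, and it was not called (log2 fold change -0.63 ± 0.23, adjusted p = 0.0567). *Tnks2*, which encodes tankyrase 2, was measured at 121, 116 and 151 CPM in the DMSO libraries and 94.7, 89 and 108 CPM in the XAV939 libraries and fell modestly (log2 fold change -0.41 ± 0.09, adjusted p = 0.00504). The DMSO and XAV939 values of *Tnks* overlapped, with 1 DMSO library well above the others, while those of *Tnks2* did not. Of all 16 PARP family genes tested, 4 rose (25%) and 3 fell (18.8%), against 16% and 17.4% of all genes tested. The largest rise in the family was that of *Parp3*, a DNA-repair PARP, from 60.6, 52.5 and 54.2 CPM with DMSO to 99.4, 83.8 and 88 CPM with XAV939 (log2 fold change 0.69 ± 0.09, adjusted p = 1.21e-04). *Parp12* and *Parp2* rose by 0.49 ± 0.10 and 0.41 ± 0.09 on the log2 scale, and *Tiparp* and *Parp16* had log2 fold changes of -0.52 ± 0.12 and -0.65 ± 0.16. The 4 rises became 2 without replicate 1, 2 without replicate 3 and 7 with an offset for GC content and length, and the 3 falls became 5 without DMSO replicate 2 and 5 without replicate 2.

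XAV939 was accompanied by a broad change of the transcriptome that was small for most genes. Of the 13873 genes, 4630 were called, which is 33.4%, with 2220 higher (16%) and 2410 lower (17.4%) in XAV939. The median log2 fold change of all genes tested was 0.016, against 0.50 among the called genes that rose and -0.61 among those that fell. Changes above 2 on the log2 scale were reached by 56 genes that rose and 104 that fell. For 1654 of the 2220 higher genes all XAV939 libraries lay above all DMSO libraries, and for 1898 of the 2410 lower genes they all lay below. The same held for 621 and 437 genes that were not called. Of all 13873 genes, 2275 had separate ranges with XAV939 above and 2335 with XAV939 below. The limits used in the study were more than a 3-fold difference with an adjusted p below 1e-05. In the paired edgeR fit 97 genes (0.699%) passed them, 19 higher and 78 lower. The study applied its limits to DESeq2, with which 220 genes passed here, or 197 without the pairing. By edgeR 1 gene passed without the pairing and 0 with the 6 libraries alone. The counts of calls also depend on the pairing, since 1050 genes rose and 1366 fell when replicate numbers were ignored. They were 2789 without DMSO replicate 1 and 3024 without XAV939 replicate 1, and 2093 and 2919 without all libraries of replicates 1 and 3. With upper-quartile scaling 2792 genes rose and 2071 fell, so 57.4% of the calls were then rises against 47.9% with TMM.

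**Figure D1:**
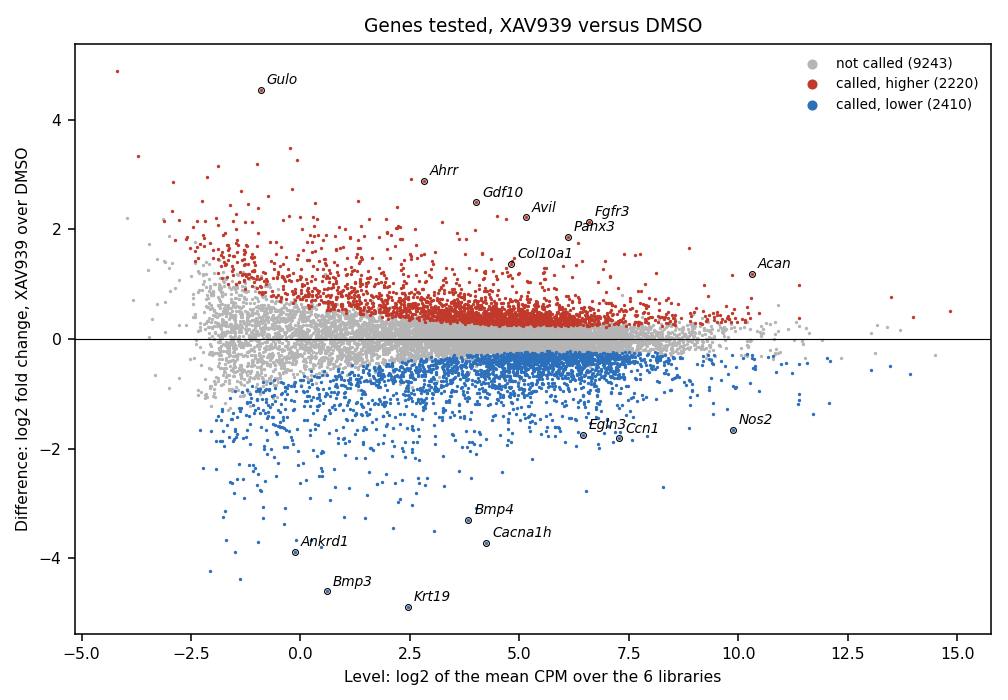
Each point is 1 of the 13873 genes, with the log2 of its mean CPM over the 6 libraries on the x axis and the log2 fold change of XAV939 over DMSO on the y axis. Red and blue points are the 2220 called genes that rose and the 2410 that fell, grey points were not called, and genes with the largest falls, such as *Krt19*, *Bmp3* and *Cacna1h*, lie further from 0 than most rises.

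Among the genes that fell most were those of a keratin, a calcium channel and a pair of bone morphogenetic proteins. *Krt19*, a keratin of simple epithelia on chromosome 11 (100140810 to 100145926, mm10), was measured at 15.1, 10.9 and 5.66 CPM in the DMSO libraries and 0.296, 0.30 and 0.432 CPM in the XAV939 libraries, which is 29.7-fold lower (log2 fold change -4.89 ± 0.29, adjusted p = 1.39e-06). *Cacna1h*, the pore of a low-voltage-activated calcium channel on chromosome 17 (25374285 to 25436334), went from 43.8, 29.5 and 32.5 CPM with DMSO to 2.86, 2.93 and 2.22 CPM with XAV939, 13.2-fold lower (log2 fold change -3.72 ± 0.15, adjusted p = 3.45e-07). *Bmp4*, a bone morphogenetic protein on chromosome 14 (46383525 to 46390669), went from 30.7, 26.4 and 20.6 CPM with DMSO to 3.04, 2.25 and 2.56 CPM with XAV939, 9.81-fold lower (log2 fold change -3.29 ± 0.16, adjusted p = 4.84e-07). The DMSO and XAV939 values were far apart for each of these 3 genes, and *Cacna1h* had the smallest p-value of all genes. Also among the 12 largest falls were those of *Bmp3*, *Ankrd1*, *Cdh17*, *Htr6*, *Msln*, *Kctd16* and *Rab33a*, with log2 fold changes between -4.61 ± 0.29 and -3.27 ± 0.25. They include a cadherin of intestinal epithelium (*Cdh17*), the surface glycoprotein mesothelin (*Msln*) and a serotonin receptor (*Htr6*). Of 6 epithelial markers listed, which do not hold *Krt19* or *Cdh17*, 1 was tested and was not called, and together they summed to between 0.45 and 0.815 CPM per library. Among the smallest p-values of lower genes was also that of *Tnfrsf11b*, which encodes osteoprotegerin, the decoy receptor that restrains osteoclast formation. It was measured at 206, 151 and 183 CPM in the DMSO libraries and 45.5, 37.9 and 53.5 CPM in the XAV939 libraries (log2 fold change -1.98 ± 0.10, adjusted p = 4.84e-07). *Bend5*, which encodes a BEN domain protein, with a log2 fold change of -3.09 ± 0.13, and *Egln3*, described below, were the others among the 5 smallest p-values of genes that fell.

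The largest rises were those of genes with low levels in DMSO. *Gulo*, the last enzyme of vitamin C synthesis in mice, had at most 3 counts in any DMSO library and 0.754, 1.43 and 0.895 CPM in the XAV939 libraries. With the DMSO group set to 3 counts per library it was at least 11.3-fold higher. *Ahrr*, the repressor of the aryl hydrocarbon receptor on chromosome 13 (74211118 to 74292331), was measured at 1.52, 1.31 and 2.26 CPM in the DMSO libraries and 10.6, 12.9 and 13.5 CPM in the XAV939 libraries, which is 7.37-fold higher (log2 fold change 2.88 ± 0.16, adjusted p = 1.12e-06). For *Ahrr* the XAV939 libraries lay close together and far above every DMSO library. *Avil*, the actin-severing protein advillin, went from 9.03, 16.7 and 11.7 CPM with DMSO to 44.9, 83.8 and 47.4 CPM with XAV939 (log2 fold change 2.22 ± 0.12, adjusted p = 8.98e-07). *G0s2*, an inhibitor of triglyceride lipase, went from 6.5, 12.2 and 4.21 CPM with DMSO to 32.6, 59.7 and 18.5 CPM with XAV939 (log2 fold change 2.25 ± 0.18, adjusted p = 6.17e-06). In both genes replicate 2 was the highest library of each condition, and the rise appeared in every pair. Also among the 12 largest rises were those of *Epha8*, *Mall*, *Otog*, *Kif12*, *Cntnap3*, *Pdzd7*, *Gdf10*, *Pde8b* and *Bglap2*. Their log2 fold changes ran from 2.40 ± 0.18 to 3.49 ± 0.37. *Pdzd7* overlaps *Sfxn3* and *Lzts2* in the annotation and *Bglap2*, an osteocalcin gene, has a near-identical copy, so reads of these genes may be assigned uncertainly. *Avil*, outside the 12 largest rises, had 1 of the 5 smallest p-values of genes that rose. *Panx3*, *Col10a1* and *Sh3tc2* were also among these 5.

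**Figure D2:**
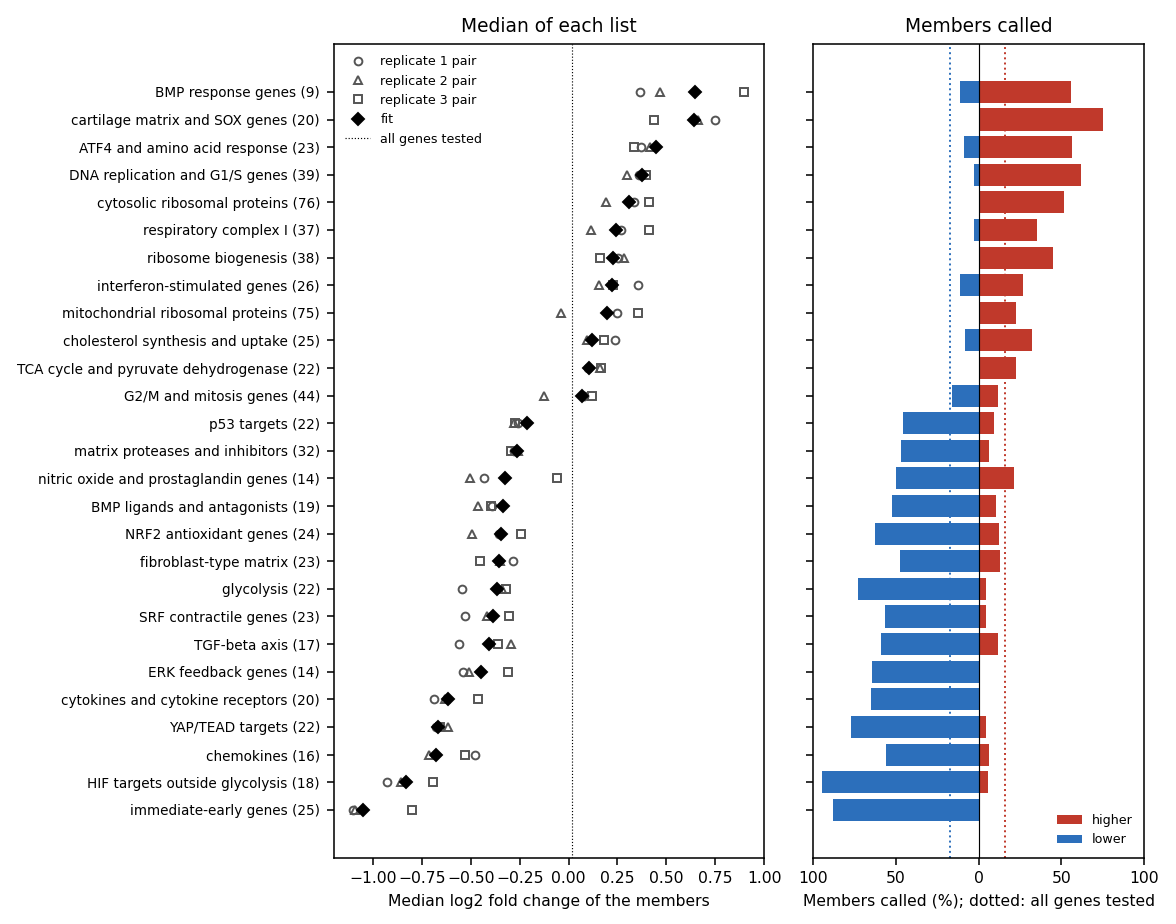
For 27 gene lists (members tested in parentheses), the left panel gives the median log2 fold change of the members in each pair of the same replicate number (open symbols) and in the fit (diamonds), and the right panel gives the percentage of members called higher (red) or lower (blue). Dotted lines mark all genes tested, and the lists lie between a median of -1.05 for immediate-early genes and 0.65 for BMP response genes.

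Targets of the hypoxia-inducible factors (HIF), which switch on genes at low oxygen, fell almost as a whole. Of 18 genes listed as targets outside glycolysis 17 fell and 1 rose, against 17.4% and 16% of all genes. The list includes the genes of HIF-1α and HIF-2α themselves, and its median log2 fold change was -0.83. *Egln3*, an oxygen-sensing prolyl hydroxylase that is itself switched on by HIF, was measured at 131, 138 and 133 CPM in the DMSO libraries and 37.2, 39.8 and 43 CPM in the XAV939 libraries (log2 fold change -1.75 ± 0.09, adjusted p = 4.84e-07). *Adm*, the vasodilator peptide adrenomedullin, was measured at 208, 197 and 178 CPM in the DMSO libraries and 67.4, 58.6 and 69.5 CPM in the XAV939 libraries (log2 fold change -1.58 ± 0.10, adjusted p = 2.03e-06). *Mxi1*, an antagonist of MYC-type factors, was measured at 101, 91.1 and 80.3 CPM in the DMSO libraries and 37.2, 31.1 and 33.9 CPM in the XAV939 libraries (log2 fold change -1.41 ± 0.10, adjusted p = 2.77e-06). In each of these genes the XAV939 libraries lay within a narrow range below all DMSO libraries. The 1 member that rose was *Epas1*, which encodes HIF-2α itself, with 186, 190.5 and 179 CPM with DMSO and 236, 257 and 200.1 CPM with XAV939 (log2 fold change 0.31 ± 0.09, adjusted p = 0.0221, or 0.0602 without the pairing). *Hif1a*, which encodes HIF-1α, was among the 17 that fell (log2 fold change -0.37 ± 0.09 in the paired fit). In the list the number that fell was 13 to 17 when libraries were left out and 15 without the pairing.

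Glycolytic genes moved the same way with smaller changes. Of 22 enzymes and transporters 16 fell and 1 rose, and the median log2 fold change was -0.37. *Slc2a3*, a high-affinity glucose transporter, was measured at 25.6, 22.7 and 22.2 CPM in the DMSO libraries and 5.42, 5.59 and 6.11 CPM in the XAV939 libraries (log2 fold change -2.04 ± 0.12, adjusted p = 1.46e-06). *Pfkp*, an isoform of phosphofructokinase, and *Slc16a3*, the lactate exporter MCT4, had log2 fold changes of -1.07 ± 0.10 and -1.02 ± 0.10. All XAV939 libraries were below all DMSO libraries for the 3 genes, and *Pfkp* overlaps *Pitrm1* and *Slc16a3* overlaps *Csnk1d* in the annotation. *Ldhb*, the lactate dehydrogenase subunit favored in oxidative tissues, rose from 48, 49 and 31.5 CPM with DMSO to 62.9, 71.8 and 46.5 CPM with XAV939 (log2 fold change 0.50 ± 0.10, adjusted p = 0.00264, or 0.107 without the pairing). The 16 falls became 9 without the pairing, 9 without DMSO replicate 1, 9 without XAV939 replicate 1, 10 without XAV939 replicate 3, 7 without all libraries of replicate 1 and 10 without those of replicate 3.

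HIF binds a short core, ACGTG, next to the start of many of its targets. This core was searched on both strands of the window from 250 bases before to 50 bases after each RefSeq start of a gene (GRCm38.p6, the same assembly as mm10). It lay in 11 of the 13 HIF targets with a window in the table (84.6%), in 13 of 21 glycolytic genes (61.9%) and in 29.1% of the 10970 tested genes with a window. Stretches around the core are shown for the 2 HIF targets with the smallest p-values among those whose window holds it, in the direction of transcription and with the core in capitals. That of *Egln3* lies on the minus strand of chr12:54204074-54204124 and that of *Mxi1* on the plus strand of chr19:53329322-53329376.
Egln3: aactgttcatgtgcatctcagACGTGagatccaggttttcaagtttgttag
Mxi1: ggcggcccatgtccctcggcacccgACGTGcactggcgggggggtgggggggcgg
The core starts 229 bases before the start of *Egln3* and 66 bases before 1 of the starts of *Mxi1*, which has another core 25 bases before a different start. The window of *Adm* does not hold these letters. A match is a description of the letters and does not show that the factor binds there. The shares count all members with a window, called or not, so they say nothing about the effect of XAV939. A list of a factor's targets can hold more of its letters for that reason alone. Both points hold for the motifs given below as well.

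Immediate-early genes, the transcription factors and feedback phosphatases that respond to serum and growth factors within minutes, showed the largest shift of any list in the plot of list medians. Of 25 members 22 fell and 0 rose, with a median log2 fold change of -1.05. *Maff*, a small MAF factor, was measured at 45.8, 39.4 and 40.0 CPM in the DMSO libraries and 10.5, 9.53 and 13.1 CPM in the XAV939 libraries (log2 fold change -1.94 ± 0.15, adjusted p = 4.13e-06). *Jun*, a subunit of the AP-1 factor, was measured at 207, 165 and 194 CPM in the DMSO libraries and 61.4, 65 and 79.8 CPM in the XAV939 libraries (log2 fold change -1.47 ± 0.11, adjusted p = 4.16e-06). *Dusp1*, a phosphatase that switches off MAP kinases, was measured at 152, 124 and 124 CPM in the DMSO libraries and 47.5, 41.6 and 60.2 CPM in the XAV939 libraries (log2 fold change -1.43 ± 0.12, adjusted p = 5.85e-06). The antiproliferative gene *Btg2*, which is also a p53 target, went the same way, with a log2 fold change of -1.35 ± 0.11, and for all 4 genes no XAV939 library reached a DMSO library. The number that fell was 18 to 23 when libraries were left out and 18 without the pairing.

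Of 14 genes that the ERK kinases switch on to restrain their own pathway 9 fell and 0 rose, with a median of -0.45. *Dusp4*, a nuclear MAP kinase phosphatase, was measured at 2.87, 1.54 and 3.61 CPM in the DMSO libraries and 0.62, 0.638 and 1.3 CPM in the XAV939 libraries (log2 fold change -1.66 ± 0.25, adjusted p = 4.04e-04). *Spry1*, an inhibitor of receptor tyrosine kinase signaling, was measured at 2.29, 2.59 and 2.23 CPM in the DMSO libraries and 0.35, 0.713 and 1.2 CPM in the XAV939 libraries (log2 fold change -1.72 ± 0.30, adjusted p = 0.00136). *Spred2*, a related inhibitor, was measured at 28.9, 21.3 and 40.6 CPM in the DMSO libraries and 10.7, 17.5 and 18.4 CPM in the XAV939 libraries (log2 fold change -0.96 ± 0.17, adjusted p = 0.00137). Values of the 3 genes did not overlap between conditions, although *Dusp4* and *Spry1* were measured at low levels. Of the 9 falls 5 were left without the pairing and 5 without replicate 1.

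**Figure D3:**
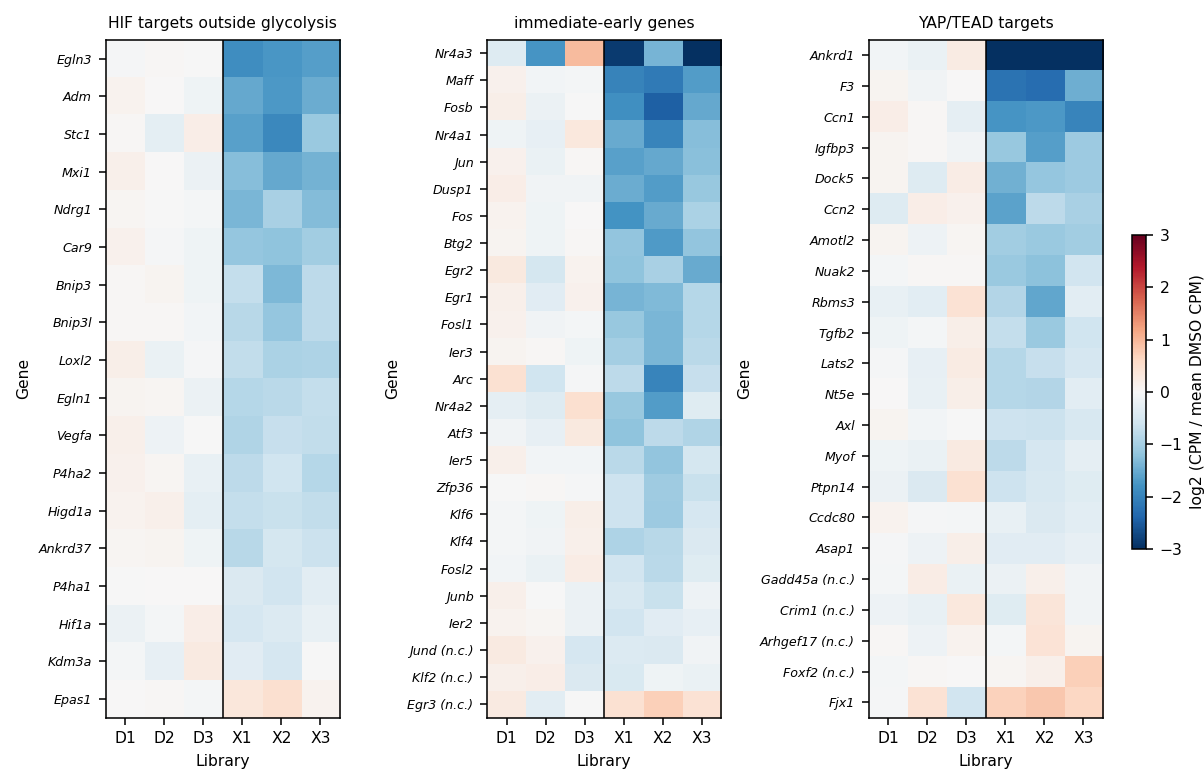
Each cell gives the log2 of a gene's CPM in 1 library over the mean CPM of the 3 DMSO libraries, for all tested HIF targets outside glycolysis, immediate-early genes and YAP/TEAD targets. Columns D1 to D3 are DMSO and X1 to X3 XAV939 libraries, colors are limited to ±3, n.c. marks genes not called, and 17 of 18, 22 of 25 and 17 of 22 genes fell.

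Targets of YAP and its DNA-binding partners, the TEAD factors, which report cell spreading and tension, also fell. Of 22 targets 17 fell and 1 rose, with a median log2 fold change of -0.67. *Ankrd1*, a nuclear ankyrin-repeat protein, was measured at 1.62, 1.51 and 2.04 CPM in the DMSO libraries and 0.0808, 0.0751 and 0.185 CPM in the XAV939 libraries, which is 14.7-fold lower (log2 fold change -3.88 ± 0.35, adjusted p = 1.20e-05). *Ccn1*, a matricellular protein formerly named CYR61, was measured at 279, 249 and 201 CPM in the DMSO libraries and 71.2, 73.4 and 61.3 CPM in the XAV939 libraries (log2 fold change -1.82 ± 0.10, adjusted p = 8.98e-07). *F3*, which encodes tissue factor, was measured at 21.7, 19.2 and 20.6 CPM in the DMSO libraries and 4.45, 4.24 and 7.44 CPM in the XAV939 libraries (log2 fold change -1.97 ± 0.15, adjusted p = 4.47e-06). *Amotl2*, an angiomotin that is both a YAP target and a YAP inhibitor, fell evenly, from 274, 234 and 271 CPM with DMSO to 127, 121 and 127 CPM with XAV939 (log2 fold change -1.05 ± 0.09, adjusted p = 6.12e-06). The member that rose was *Fjx1*, a kinase-like Golgi protein, at 1.89, 2.62 and 1.29 CPM with DMSO and 3.13, 3.38 and 2.96 CPM with XAV939 (log2 fold change 0.72 ± 0.19, adjusted p = 0.0151, or 0.0533 without the pairing). The ranges of the 2 conditions did not touch for the 4 named genes that fell, nor for 15 of all 17 that fell. Among all genes tested this held for 1898 of the 2410 that fell. The 17 falls became 12 without the pairing and 13 to 18 when libraries were left out.

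The core bound by TEAD factors, GGAATG, was present on either strand in the promoter window of 7 of 15 YAP/TEAD targets (46.7%), against 14.7% of all tested genes with a window. Stretches are shown for 3 of the members named above, in the direction of transcription and with the core, which reads CATTCC on the opposite strand, in capitals. They come from RefSeq, GRCm38.p6. That of *Ccn1* lies on the minus strand of chr3:145650058-145650113, the cores of *Ankrd1* on the minus strand of chr19:36120024-36120079 and chr19:36119937-36119992, and that of *Amotl2* on the plus strand of chr9:102717714-102717769.
Ccn1: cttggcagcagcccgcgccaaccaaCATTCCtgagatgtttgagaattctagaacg
Ankrd1 distal: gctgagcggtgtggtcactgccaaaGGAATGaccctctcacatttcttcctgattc
Ankrd1 proximal: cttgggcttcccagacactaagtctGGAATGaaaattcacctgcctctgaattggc
Amotl2: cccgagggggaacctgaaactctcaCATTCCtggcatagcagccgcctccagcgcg
The cores start 103 bases before the start of *Ccn1*, 210 and 123 bases before that of *Ankrd1* and 65 bases before that of *Amotl2*. The share with the core is of all members, called or not, and is no measure of the effect of XAV939.

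Contractile genes driven by serum response factor (SRF), which build the actin cytoskeleton, fell in 13 of 23 cases and rose in 1, with a median of -0.38. *Vcl*, which encodes the adhesion protein vinculin, was measured at 128, 112 and 139 CPM in the DMSO libraries and 63.8, 60.8 and 68 CPM in the XAV939 libraries (log2 fold change -0.98 ± 0.09, adjusted p = 1.20e-05). *Cnn2*, the actin-binding calponin 2, was measured at 125, 107 and 74.9 CPM in the DMSO libraries and 55.2, 44.4 and 42.3 CPM in the XAV939 libraries (log2 fold change -1.10 ± 0.12, adjusted p = 6.08e-05). *Tpm4*, a tropomyosin, was measured at 583, 552 and 497 CPM in the DMSO libraries and 344, 263 and 344 CPM in the XAV939 libraries (log2 fold change -0.79 ± 0.11, adjusted p = 2.07e-04). Every XAV939 library lay below every DMSO library in these genes, and *Vcl* overlaps *Ap3m1*. *Mylk*, a myosin light chain kinase, rose slightly (log2 fold change 0.34 ± 0.10, adjusted p = 0.0214, or 0.0784 without the pairing). The 13 falls became 6 without the pairing, 6 without DMSO replicate 1, 4 without XAV939 replicate 1, 4 without replicate 1 of every group and 8 by DESeq2 without the pairing. The CArG box that SRF binds was found in the window of 7 of 20 contractile genes (35%) and 2 of 20 immediate-early genes (10%). It lay in 1.57% of all tested genes with a window, and the shares count members whether called or not. It is shown in capitals for the 2 members with the smallest p-values, from RefSeq (GRCm38.p6), on the plus strand of chr14:20929148-20929205 for *Vcl* and chr10:79988519-79988578 for *Cnn2*.
Vcl: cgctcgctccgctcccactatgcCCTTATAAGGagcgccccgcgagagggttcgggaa
Cnn2: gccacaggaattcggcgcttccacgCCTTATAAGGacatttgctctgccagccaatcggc
The box holds the same letters in both genes and starts 227 bases before the start of *Vcl* and 56 bases before that of *Cnn2*.

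In the transforming growth factor β (TGF-β) axis, which covers ligands, latent-complex proteins, regulators and targets, 10 of 17 genes fell and 2 rose, with a median of -0.40. *Ltbp1*, which anchors latent TGF-β in the matrix, was measured at 134, 97.8 and 148 CPM in the DMSO libraries and 64.1, 51.4 and 78.1 CPM in the XAV939 libraries (log2 fold change -0.97 ± 0.10, adjusted p = 2.23e-05). *Skil*, a repressor of SMAD transcription, was measured at 31.6, 27.1 and 60.7 CPM in the DMSO libraries and 15.9, 13.7 and 28.2 CPM in the XAV939 libraries (log2 fold change -1.03 ± 0.12, adjusted p = 7.05e-05, or 0.0534 without the pairing). The ranges of *Skil* overlapped because replicate 3 was high in both conditions, and the fall showed within each pair. *Ltbp4* and *Tgfbi*, both matrix proteins, rose by 0.77 ± 0.13 and 0.65 ± 0.11 on the log2 scale. Of the 10 falls 4 were left without the pairing and 6 by DESeq2 without the pairing.

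Integrins, the receptors that tie cells to the matrix, fell in 11 of 19 cases (57.9%) and rose in 2 (10.5%). The shares of all genes were 17.4% and 16%. *Itga7*, a laminin receptor, was measured at 24.4, 22.4 and 19.9 CPM in the DMSO libraries and 5.01, 6.72 and 5.4 CPM in the XAV939 libraries (log2 fold change -1.96 ± 0.13, adjusted p = 2.39e-06), and it overlaps *Mettl7b*. *Itgav*, the vitronectin receptor subunit that also releases TGF-β, was measured at 165, 142 and 267 CPM in the DMSO libraries and 99.3, 82.8 and 135 CPM in the XAV939 libraries (log2 fold change -0.83 ± 0.10, adjusted p = 1.33e-04). *Itga9* had a log2 fold change of -0.72 ± 0.11 (adjusted p = 5.26e-04, or 0.0858 without the pairing). Values of these 3 did not overlap between conditions. *Itga10*, a collagen receptor typical of cartilage, and *Itga6* rose, with 35.5, 40.2 and 48.1 CPM with DMSO and 49.6, 65.9 and 49.7 CPM with XAV939 for *Itga10* (log2 fold change 0.41 ± 0.11, adjusted p = 0.0165, or 0.0752 without the pairing) and 68.9, 130.1 and 113 CPM with DMSO and 128, 191 and 163 CPM with XAV939 for *Itga6* (log2 fold change 0.66 ± 0.11, adjusted p = 8.18e-04, or 0.0777 without the pairing). The 11 falls became 6 without the pairing, 6 without DMSO replicate 1, 7 without DMSO replicate 3, 7 without XAV939 replicate 1, 6 without replicate 1 of every group, 6 without replicate 3, 7 with the 6 libraries alone and 7 by DESeq2 without the pairing.

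Matrix genes typical of fibroblasts split. Of 23 members 11 fell and 3 rose, with a median log2 fold change of -0.35. *Col12a1*, a collagen that decorates fibrils, was measured at 844, 707 and 1455 CPM in the DMSO libraries and 310.0, 349 and 471 CPM in the XAV939 libraries (log2 fold change -1.37 ± 0.12, adjusted p = 8.41e-06). *Col3a1*, a fibrillar collagen of soft tissue, was measured at 3482, 3056 and 4410.0 CPM in the DMSO libraries and 1499, 1339 and 2010.0 CPM in the XAV939 libraries (log2 fold change -1.18 ± 0.10, adjusted p = 9.13e-06). *Col5a2*, a fibril-nucleating collagen, was measured at 3708, 2880.0 and 4094 CPM in the DMSO libraries and 1802, 1481 and 1997 CPM in the XAV939 libraries (log2 fold change -1.01 ± 0.10, adjusted p = 1.63e-05). Each stood highest in replicate 3 within both conditions, and even so all XAV939 libraries were below all DMSO libraries. In the opposite direction *Eln*, which encodes elastin, was measured at 2.87, 3.7 and 6.19 CPM in the DMSO libraries and 9.05, 11.5 and 16.9 CPM in the XAV939 libraries (log2 fold change 1.58 ± 0.12, adjusted p = 5.17e-06). *Postn*, which encodes periostin, was measured at 8.57, 9.6 and 15.6 CPM in the DMSO libraries and 24.5, 24.9 and 28.9 CPM in the XAV939 libraries (log2 fold change 1.25 ± 0.13, adjusted p = 2.72e-05). *Col14a1* rose within the pairs while its ranges overlapped (log2 fold change 0.55 ± 0.12, adjusted p = 0.00558, or 0.507 without the pairing). The 11 falls became 7 without the pairing and 7 without replicate 1. The markers of other connective tissue cells moved in both directions. *Pdgfra*, a receptor of fibroblasts and mesenchymal cells, fell from 166, 170.0 and 290.1 CPM with DMSO to 69.9, 77.3 and 126 CPM with XAV939 (log2 fold change -1.20 ± 0.09, adjusted p = 3.82e-06), as did *Cd34* and *Dpt*, with log2 fold changes of -0.75 ± 0.11 and -1.47 ± 0.25. Of the other fibroblast and synovial markers *Pi16* rose at under 1 CPM in every library (log2 fold change 1.45 ± 0.46, adjusted p = 0.0319, or 0.054 without the pairing), and *Prg4*, which encodes lubricin, is also made by superficial chondrocytes and overlaps *Tpr*, was not called (log2 fold change -0.21 ± 0.12, adjusted p = 0.208). Among pericyte markers *Cspg4*, which cartilage also expresses, rose from 119, 156 and 185 CPM with DMSO to 224, 416 and 294 CPM with XAV939 and *Notch3* had a log2 fold change of -1.15 ± 0.20. Among tendon markers *Scx*, which overlaps *Bop1*, had a log2 fold change of -0.80 ± 0.16. The 5 pericyte markers summed to 141 to 206 CPM with DMSO and 233 to 426 CPM with XAV939, the 3 tendon markers to 26.9 to 31.7 and 15.3 to 24.2 CPM, the 5 adipocyte markers to 36.5 to 49.7 and 25.1 to 30.9 CPM, the 6 osteoblast markers to 42.6 to 65.7 and 57.2 to 66.4 CPM, and the 5 osteoclast markers to 31.4 to 38.4 and 45.3 to 53.8 CPM. Fewer cells of a type and less RNA per cell cannot be told apart in these bulk libraries, and the part of these markers in the other results was not tested.

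Genes of bone morphogenetic protein (BMP) signaling were listed as ligands with antagonists and as response genes. Of 19 ligands and antagonists 10 fell and 2 rose. *Bmp3*, a ligand that opposes other BMPs, was measured at 2.81, 3.2 and 2.7 CPM in the DMSO libraries and 0.0808, 0.15 and 0.123 CPM in the XAV939 libraries, 24.4-fold lower (log2 fold change -4.61 ± 0.29, adjusted p = 1.76e-06). *Gdf5*, a joint-forming ligand, was measured at 74.9, 74.7 and 59.2 CPM in the DMSO libraries and 18.6, 22.3 and 21.5 CPM in the XAV939 libraries (log2 fold change -1.74 ± 0.11, adjusted p = 1.74e-06). *Gdf10*, a ligand close to *Bmp3* in sequence, changed the other way, at 2.59, 5.67 and 6.25 CPM in the DMSO libraries and 17.6, 25.8 and 38.7 CPM in the XAV939 libraries (log2 fold change 2.49 ± 0.17, adjusted p = 2.09e-06). *Bmp4* fell 9.81-fold, as given above, and ranges were apart for all 4 genes. The 10 falls became 6 without the pairing and 6 without replicate 1, and the 2 rises were 1 without the pairing, 1 without XAV939 replicate 1, 4 without XAV939 replicate 2, 1 without replicate 1 and 4 without replicate 2.

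Of 9 BMP response genes 5 rose and 1 fell, with a median of 0.65. *Id1*, an inhibitor of basic helix-loop-helix factors, was measured at 29.8, 32.9 and 22.4 CPM in the DMSO libraries and 66.2, 74 and 65.7 CPM in the XAV939 libraries (log2 fold change 1.29 ± 0.12, adjusted p = 1.57e-05). *Bambi*, a pseudoreceptor, was measured at 3.66, 5.7 and 4.34 CPM in the DMSO libraries and 9.32, 15.1 and 11.1 CPM in the XAV939 libraries (log2 fold change 1.37 ± 0.14, adjusted p = 2.81e-05). *Smad9*, a signal transducer of the pathway, was measured at 7.62, 8.0 and 9.37 CPM in the DMSO libraries and 16.3, 15.3 and 17.5 CPM in the XAV939 libraries (log2 fold change 0.98 ± 0.10, adjusted p = 3.01e-05). *Id3* and *Atoh8* rose as well, with log2 fold changes of 0.72 ± 0.11 and 0.65 ± 0.13, and in all 5 genes every XAV939 library exceeded every DMSO library. *Smad7*, the inhibitory SMAD shared with TGF-β, was the member that fell (log2 fold change -0.47 ± 0.09, adjusted p = 0.00273, or 0.0804 without the pairing). *Id4*, *Smad6* and *Id2* were not called, with log2 fold changes of 0.42 ± 0.15, 0.10 ± 0.12 and 0.03 ± 0.11. The count of 5 rises was the same without the pairing and was 5 to 6 when libraries were left out.

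Receptors of the fibroblast growth factors (FGF) included rises and falls. Of 12 ligands and receptors tested 3 rose (25%) and 4 fell (33.3%), against 16% and 17.4% of all genes. *Fgfr3*, the receptor that restrains chondrocyte proliferation in growth cartilage, was measured at 28.4, 42.1 and 35.9 CPM in the DMSO libraries and 134, 215 and 124 CPM in the XAV939 libraries, 4.38-fold higher (log2 fold change 2.13 ± 0.14, adjusted p = 1.91e-06). *Fgfr4* was measured at 1.16, 1.16 and 0.943 CPM in the DMSO libraries and 3.37, 5.18 and 3.09 CPM in the XAV939 libraries (log2 fold change 1.81 ± 0.20, adjusted p = 4.83e-05). *Fgfrl1*, a receptor without a kinase domain, was measured at 55.2, 90.0 and 57.2 CPM in the DMSO libraries and 124, 273 and 116 CPM in the XAV939 libraries (log2 fold change 1.28 ± 0.16, adjusted p = 1.34e-04). All 3 lay above the DMSO range in each XAV939 library, with replicate 2 the highest of these. *Fgfr1*, the mesenchymal receptor, was measured at 386, 393 and 384 CPM in the DMSO libraries and 248, 344 and 271 CPM in the XAV939 libraries (log2 fold change -0.44 ± 0.10, adjusted p = 0.00594), and *Fgfr2* had a log2 fold change of -0.25 ± 0.09 (adjusted p = 0.0454, or 0.105 without the pairing). Of the ligands *Fgf7* fell (log2 fold change -0.99 ± 0.14, adjusted p = 2.41e-04), as did *Fgf10* (log2 fold change -0.40 ± 0.14, adjusted p = 0.0414, or 0.51 without the pairing), while *Fgf21*, *Fgf18*, *Fgf9*, *Fgf1* and *Fgf2* were not called. *Fgf1* overlaps *Arhgap26* and *Fgf2* overlaps *Nudt6*. These 5 ligands were measured at no more than 3.05 CPM in any library, and their log2 fold changes lay between -0.60 ± 0.47 and -0.11 ± 0.30. Beside the 3 rises, the 4 falls of the list were 1 to 3 when libraries were left out, 2 without the pairing, 2 with upper-quartile scaling and 2 with the 6 libraries alone, and each of DMSO replicates 1, 2 and 3 and XAV939 replicate 3 took them to 2 and XAV939 replicate 1 to 1.

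In the insulin-like growth factor (IGF) axis 7 of 13 genes fell (54%) and 3 rose (23%), against 17.4% and 16% of all genes. *Igf1*, the ligand that stimulates cartilage growth, was measured at 16.4, 17.8 and 23.9 CPM in the DMSO libraries and 7.63, 4.84 and 9.04 CPM in the XAV939 libraries (log2 fold change -1.45 ± 0.14, adjusted p = 1.98e-05). *Igfbp2* and *Igfbp3*, secreted proteins that bind it, had log2 fold changes of -2.46 ± 0.21 and -1.28 ± 0.12, with no overlap between conditions. *Irs1*, the adaptor downstream of the receptor, rose from 129, 131 and 127 CPM with DMSO to 195, 181 and 173 CPM with XAV939 (log2 fold change 0.50 ± 0.08, adjusted p = 7.27e-04). *Igfbp6* and *Igfbp4* also rose, by 0.48 ± 0.14 (adjusted p = 0.02, or 0.105 without the pairing) and 0.37 ± 0.11 (adjusted p = 0.0205, or 0.232 without the pairing). The 7 falls became 4 without the pairing and 4 by DESeq2 without the pairing, and the 3 rises were 1 in both of these fits, 1 without DMSO replicates 1 or 3 and 1 without XAV939 replicate 1.

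**Figure D4:**
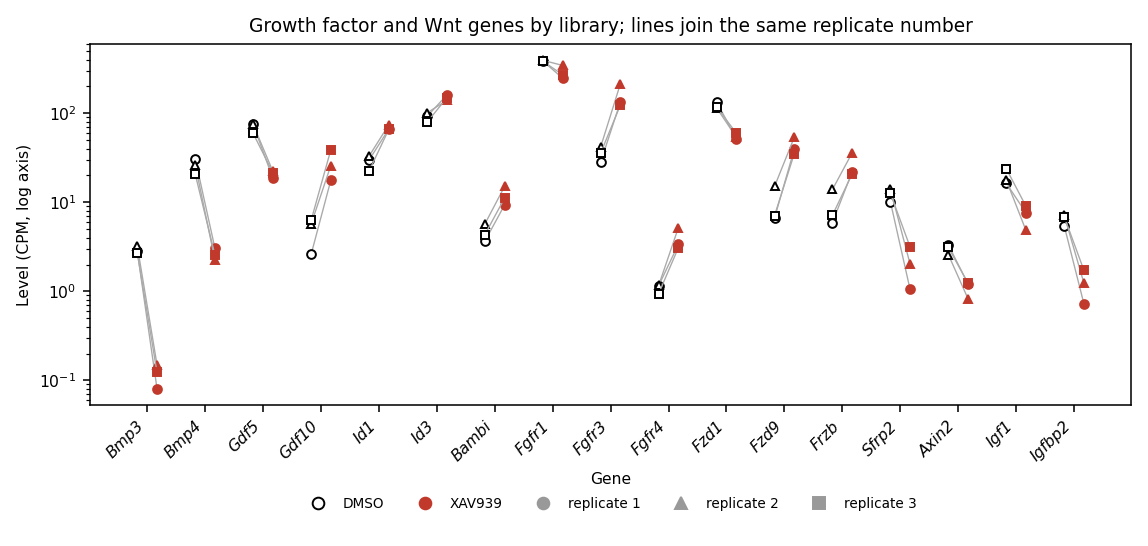
Levels in CPM on a log axis of 17 growth factor and Wnt genes in each DMSO (open) and XAV939 (red) library, with lines joining libraries of the same replicate number. *Bmp3*, *Bmp4* and *Sfrp2* dropped in all 3 pairs while *Gdf10*, *Fgfr3* and *Fzd9* climbed in all 3.

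Since tankyrases regulate β-catenin, genes of the Wnt pathway were listed by role. Among 10 feedback and target genes 3 fell (30%) and 1 rose (10%), against 17.4% and 16% of all genes, with a median of -0.16. *Axin2*, the most widely used target gene, was measured at 3.32, 2.59 and 3.11 CPM in the DMSO libraries and 1.21, 0.826 and 1.23 CPM in the XAV939 libraries, 2.77-fold lower (log2 fold change -1.47 ± 0.19, adjusted p = 1.41e-04). *Ccn4*, a secreted target formerly named WISP1, was measured at 46.1, 42.4 and 61.5 CPM in the DMSO libraries and 26.5, 23.6 and 35.7 CPM in the XAV939 libraries (log2 fold change -0.81 ± 0.10, adjusted p = 9.52e-05). *Nkd2*, a feedback inhibitor at about 1 CPM or less, had a log2 fold change of -0.91 ± 0.29 (adjusted p = 0.0299, or 0.104 without the pairing). *Lef1*, a DNA-binding partner of β-catenin, rose (log2 fold change 0.46 ± 0.12, adjusted p = 0.0124, or 0.0713 without the pairing). The other 6, *Tcf7* (which overlaps *Skp1*), *Notum*, *Nkd1*, *Apcdd1*, *Znrf3* and *Tnfrsf19*, were not called and had log2 fold changes between -0.42 ± 0.15 and 0.43 ± 0.19. *Axin2*, *Ccn4*, *Nkd2* and *Tcf7* were lower in every XAV939 library than in any DMSO library, whereas *Lef1*, *Notum* and *Nkd1* were higher in every one. The 3 falls were 5 without a count filter.

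Of 19 Wnt ligands and receptors 9 fell (47.4%) and 4 rose (21.1%), against 17.4% and 16% of all genes. *Fzd9*, a receptor, was measured at 6.68, 15.1 and 7.07 CPM in the DMSO libraries and 39.2, 53.5 and 35 CPM in the XAV939 libraries (log2 fold change 2.19 ± 0.17, adjusted p = 5.18e-06). *Fzd1*, another receptor of the same family, changed in the opposite direction, at 134, 115 and 118 CPM in the DMSO libraries and 51.6, 53.8 and 59.7 CPM in the XAV939 libraries (log2 fold change -1.16 ± 0.10, adjusted p = 8.69e-06). *Wnt9a*, a joint-forming ligand, was measured at 4.6, 3.81 and 6.1 CPM in the DMSO libraries and 0.97, 0.901 and 1.85 CPM in the XAV939 libraries (log2 fold change -1.99 ± 0.20, adjusted p = 2.34e-05). The 2 receptors thus moved apart, each with separate ranges. *Wnt10b* and *Wnt4* rose by 0.90 ± 0.13 and 1.38 ± 0.22, and *Fzd7* had a log2 fold change of -0.55 ± 0.08. The 9 falls became 5 without replicate 1. Of 8 secreted antagonists tested 5 fell (62.5%) and 2 rose (25%). *Sfrp2* was measured at 10.2, 14.1 and 12.6 CPM in the DMSO libraries and 1.05, 2.03 and 3.15 CPM in the XAV939 libraries (log2 fold change -2.66 ± 0.24, adjusted p = 1.21e-05). *Frzb*, an antagonist made by cartilage, was measured at 5.92, 13.9 and 7.17 CPM in the DMSO libraries and 22, 35.9 and 20.8 CPM in the XAV939 libraries (log2 fold change 1.58 ± 0.12, adjusted p = 4.83e-06). These antagonists also changed in opposite directions. *Wif1*, *Dkk3*, *Sostdc1* and *Sfrp4* fell, with log2 fold changes between -1.34 ± 0.13 and -0.67 ± 0.12 (adjusted p = 0.00715 for *Sfrp4*, or 0.0669 without the pairing), and *Sfrp1* was not called (log2 fold change -0.27 ± 0.14, adjusted p = 0.147). *Sfrp5* had at most 2 counts in any DMSO library and at most 9 in any XAV939 library, which makes it at least 2.08-fold higher when DMSO is set to 3 counts per library (adjusted p = 0.0264, or 0.201 without the pairing). The 2 rises became 1 without the pairing, 1 without any of DMSO replicates 2 and 3 or XAV939 replicates 2 and 3, 1 by DESeq2, 1 with the 6 libraries alone and 1 when at least 10 counts were asked of every library. In the intracellular core of the pathway 4 of 22 genes fell (18.2%) and 0 rose, against 17.4% and 16% of all genes. The share of falls was thus near that of all genes, and the sign of the list's median depended on the scaling. The kinase genes *Csnk1a1* and *Gsk3b* and the ubiquitin ligase gene *Fbxw11* had the smallest p-values, with log2 fold changes of -0.38 ± 0.09, -0.35 ± 0.10 (adjusted p = 0.0196, or 0.113 without the pairing) and -0.27 ± 0.09 (adjusted p = 0.0308, or 0.0668 without the pairing). The 4 falls were 1 without the pairing, 2 with upper-quartile scaling, 2 with the 6 libraries alone, 2 by DESeq2 without the pairing and 0 to 9 when libraries were left out, with 2 without DMSO replicate 1, 8 without DMSO replicate 2, 1 without DMSO replicate 3, 2 without XAV939 replicate 1, 1 without XAV939 replicate 3, 0 without replicate 1, 9 without replicate 2 and 1 without replicate 3.

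Inflammatory mediators were mostly lower in XAV939. Of 20 cytokines and cytokine receptors 13 fell and 0 rose, with a median of -0.62. *Il11*, a fibrosis-linked cytokine of the IL-6 family, was measured at 26, 16.9 and 33 CPM in the DMSO libraries and 3.61, 2.1 and 8.15 CPM in the XAV939 libraries (log2 fold change -2.54 ± 0.20, adjusted p = 5.14e-06). *Lif*, another member of that family, was measured at 71.1, 55.9 and 93.8 CPM in the DMSO libraries and 16.5, 18.8 and 35.8 CPM in the XAV939 libraries (log2 fold change -1.69 ± 0.14, adjusted p = 7.24e-06). *Il1rl1*, the receptor of IL-33, was measured at 146, 143 and 237 CPM in the DMSO libraries and 30.4, 45.2 and 68.2 CPM in the XAV939 libraries (log2 fold change -1.91 ± 0.12, adjusted p = 1.85e-06). Replicate 3 had the highest level of each gene in both conditions, and the ranges did not overlap. Of 16 chemokines 9 fell and 1 rose, with a median of -0.68. *Cxcl2* and *Cxcl3*, which attract neutrophils, had log2 fold changes of -1.60 ± 0.10 and -1.71 ± 0.14, and *Cxcl10*, which overlaps *Art3*, one of -2.16 ± 0.16. *Ccl9*, a chemokine for myeloid cells, rose from 5.06, 10.3 and 5.69 CPM with DMSO to 20.8, 19.9 and 19.1 CPM with XAV939 (log2 fold change 1.55 ± 0.17, adjusted p = 4.76e-05). The chemokine falls numbered 9 to 10 when libraries were left out and 9 without the pairing.

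Among 14 genes of nitric oxide and prostaglandin synthesis 7 fell and 3 rose. *Nos2*, the inducible nitric oxide synthase, was measured at 1608, 1213 and 1432 CPM in the DMSO libraries and 423, 407 and 519 CPM in the XAV939 libraries (log2 fold change -1.66 ± 0.12, adjusted p = 3.30e-06). *Ptgs2*, which encodes COX-2, was measured at 211, 162 and 339.8 CPM in the DMSO libraries and 57.6, 51.1 and 116 CPM in the XAV939 libraries (log2 fold change -1.69 ± 0.13, adjusted p = 4.11e-06). *Ptgis*, the prostacyclin synthase, had a log2 fold change of -0.86 ± 0.13. None of the 3 overlapped between conditions. *Ptges2* and *Ptgs1*, the latter encoding the constitutive COX-1, rose by 0.67 ± 0.14 (adjusted p = 0.00432, or 0.0909 without the pairing) and 0.46 ± 0.10 (adjusted p = 0.00484, or 0.198 without the pairing). The 7 falls became 4 without the pairing, 4 without DMSO replicate 1 and 4 without replicate 1 of every group, and the 3 rises were 0 without the pairing and 1 without replicate 3.

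Feedback genes and targets of NF-κB, the main inflammatory factor, fell in 8 of 18 cases (44.4%) and rose in 1 (5.56%). The shares of all genes were 17.4% and 16%. *Tnfaip3*, which encodes the deubiquitinase A20, was measured at 46.2, 36.7 and 49.4 CPM in the DMSO libraries and 14.4, 18.5 and 18.1 CPM in the XAV939 libraries (log2 fold change -1.38 ± 0.12, adjusted p = 1.07e-05). *Tnip3* and *Nfkbiz* had log2 fold changes of -1.62 ± 0.15 and -0.54 ± 0.09. *Vcam1*, an adhesion molecule for leukocytes, rose from 10.8, 13.8 and 19.3 CPM with DMSO to 25.5, 30.0 and 46 CPM with XAV939 (log2 fold change 1.21 ± 0.10, adjusted p = 5.12e-06). All 4 had separate ranges. The 8 falls became 5 without the pairing, 5 without DMSO replicate 1, 5 without XAV939 replicate 1, 5 without XAV939 replicate 3, 4 without replicate 1 and 4 without replicate 3.

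Complement and acute-phase genes fell in 8 of 21 cases (38.1%) and rose in 3 (14.3%), against 17.4% and 16% of all genes. The serum amyloid genes *Saa1* and *Saa2* had log2 fold changes of -1.61 ± 0.20 and -1.45 ± 0.16, and reads of these near-identical copies may be divided uncertainly. *Masp1*, a protease of the lectin pathway that overlaps *Rtp4*, was measured at 35.5, 28.8 and 48.7 CPM in the DMSO libraries and 15.7, 17.4 and 22.9 CPM in the XAV939 libraries (log2 fold change -1.01 ± 0.11, adjusted p = 4.47e-05). *Cp*, which encodes ceruloplasmin and overlaps *Hps3*, was measured at 439, 429.6 and 364 CPM in the DMSO libraries and 618, 509 and 525 CPM in the XAV939 libraries (log2 fold change 0.43 ± 0.10, adjusted p = 0.00662). *Hp*, which encodes haptoglobin, had a log2 fold change of 0.42 ± 0.14 (adjusted p = 0.0355, or 0.14 without the pairing). The 3 rises became 1 without the pairing, 1 without DMSO replicate 3, 0 without XAV939 replicate 1, 0 without replicate 1 and 0 without replicate 3.

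Of 26 interferon-stimulated genes 7 were higher (26.9%) and 3 lower (11.5%), against 16% and 17.4% of all genes, with a median of 0.22. *Ifit3*, an antiviral protein, was measured at 0.305, 0.669 and 0.597 CPM in the DMSO libraries and 1.48, 2.1 and 2.25 CPM in the XAV939 libraries (log2 fold change 1.88 ± 0.24, adjusted p = 1.40e-04). *Ifi44* was measured at 0.732, 1.51 and 1.32 CPM in the DMSO libraries and 3.96, 4.73 and 2.69 CPM in the XAV939 libraries (log2 fold change 1.67 ± 0.24, adjusted p = 3.96e-04). No XAV939 library fell into the DMSO range in these genes, and both were at low levels. *Cmpk2*, a mitochondrial nucleotide kinase, was the strongest fall (log2 fold change -1.28 ± 0.22, adjusted p = 0.00118), followed by *Isg20* (log2 fold change -0.52 ± 0.10, adjusted p = 0.00317, or 0.168 without the pairing) and *Trim25* (log2 fold change -0.28 ± 0.10, adjusted p = 0.0492, or 0.113 without the pairing). The 7 rises became 4 without the pairing, 11 with upper-quartile scaling, 4 without DMSO replicate 3, 4 without XAV939 replicate 1, 3 without replicate 1 and 4 without replicate 3.

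Antioxidant genes driven by NRF2 fell in 15 of 24 cases and rose in 3, with a median of -0.35. *Hmox1*, the heme-degrading enzyme, was measured at 1017, 908 and 937 CPM in the DMSO libraries and 442, 378 and 451 CPM in the XAV939 libraries (log2 fold change -1.17 ± 0.11, adjusted p = 1.30e-05). *Srxn1*, which restores peroxiredoxins, was measured at 179, 169 and 192 CPM in the DMSO libraries and 83, 84.5 and 107 CPM in the XAV939 libraries (log2 fold change -0.98 ± 0.09, adjusted p = 1.33e-05). *Abcc1*, an exporter of glutathione conjugates, was measured at 209, 186 and 234 CPM in the DMSO libraries and 98.4, 125 and 114 CPM in the XAV939 libraries (log2 fold change -0.90 ± 0.10, adjusted p = 6.83e-05). The DMSO and XAV939 values of the 3 genes were well apart. *Nqo1*, the quinone reductase often used to read this pathway, went the other way, at 52, 56 and 66.5 CPM in the DMSO libraries and 74, 69.2 and 112 CPM in the XAV939 libraries (log2 fold change 0.53 ± 0.12, adjusted p = 0.0054). *Taldo1* and *Fth1* also rose, by 0.29 ± 0.09 (adjusted p = 0.0283, or 0.21 without the pairing) and 0.39 ± 0.13 (adjusted p = 0.037, or 0.222 without the pairing). The 15 falls became 9 without the pairing, 8 without DMSO replicate 1, 9 without XAV939 replicate 1 and 7 without replicate 1, and the 3 rises were 1 without the pairing, 1 with the GC and length offset, 1 with the 6 libraries alone, 1 without DMSO replicates 1 or 3 and 1 without XAV939 replicates 1 or 3.

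The aryl hydrocarbon receptor binds planar chemicals and tryptophan products and induces detoxifying enzymes, and of 6 genes of this pathway tested 2 rose and 2 fell. *Ahrr*, described above, and *Aldh3a1*, an aldehyde dehydrogenase, rose, the latter from 4.18, 4.04 and 4.68 CPM with DMSO to 5.36, 6.53 and 10.7 CPM with XAV939 (log2 fold change 0.76 ± 0.16, adjusted p = 0.00418). *Ahr*, the receptor itself, was measured at 36.4, 29.8 and 33.9 CPM in the DMSO libraries and 18.5, 10.6 and 20.0 CPM in the XAV939 libraries (log2 fold change -1.06 ± 0.14, adjusted p = 1.74e-04). *Tiparp*, a PARP that the receptor induces, also fell, from 100.5, 102 and 104 CPM with DMSO to 73.3, 55 and 87.3 CPM with XAV939 (log2 fold change -0.52 ± 0.12, adjusted p = 0.00731). Thus the repressor and the receptor changed in opposite directions with separate ranges. *Cyp1b1* and *Arnt* were not called, with log2 fold changes of 0.23 ± 0.12 and -0.14 ± 0.08.

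Genes of the amino acid response, which the factor ATF4 induces when amino acids run short or the endoplasmic reticulum is stressed, rose in 13 of 23 cases and fell in 2, with a median of 0.45. *Phgdh*, the first enzyme of serine synthesis, was measured at 151, 168 and 119 CPM in the DMSO libraries and 272, 332 and 204 CPM in the XAV939 libraries (log2 fold change 0.87 ± 0.11, adjusted p = 1.59e-04). *Cth*, which makes cysteine, was measured at 37.7, 46.2 and 37.8 CPM in the DMSO libraries and 63.4, 66.3 and 56.8 CPM in the XAV939 libraries (log2 fold change 0.62 ± 0.09, adjusted p = 2.46e-04). *Trib3*, a pseudokinase that feeds back on ATF4, was measured at 92.9, 120.5 and 102 CPM in the DMSO libraries and 162, 193 and 144 CPM in the XAV939 libraries (log2 fold change 0.66 ± 0.10, adjusted p = 5.35e-04). The ranges of these genes did not overlap. *Nupr1* and *Stc2* were the members that fell, with log2 fold changes of -0.38 ± 0.09 (adjusted p = 0.00564, or 0.104 without the pairing) and -0.39 ± 0.10 (adjusted p = 0.0114, or 0.0681 without the pairing). The 13 rises became 10 without the pairing and 9 to 14 when libraries were left out, and the 2 falls were 0 without the pairing, 4 with the GC and length offset, 1 without DMSO replicate 1, 4 without DMSO replicate 2 and 1 without XAV939 replicate 1. The composite element of ATF4 with CEBP factors, TGATGNAAN, lay on either strand of the window in 7 of 20 members (35%). It lay in 2.73% of all tested genes with a window, and the share of members counts those called and those not called. The element is shown in capitals for *Chac1*, a glutathione-degrading enzyme that was chosen after its values were seen and whose element lies wholly upstream of the start. The stretch is from RefSeq (GRCm38.p6), on the plus strand of chr2:119351023-119351081.
Chac1: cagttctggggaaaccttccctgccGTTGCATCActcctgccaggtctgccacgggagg
*Chac1* rose from 33.4, 36.9 and 29.8 CPM with DMSO to 46.2, 53.9 and 37.3 CPM with XAV939 (log2 fold change 0.45 ± 0.09, adjusted p = 0.00234, or 0.05 without the pairing). Of 25 genes of protein folding in the endoplasmic reticulum and its unfolded protein response 1 rose (4%) and 3 fell (12%), with a median of -0.12. The 3 falls were 5 without a count filter, 5 by DESeq2 and 7 with the GC and length offset. What set off the rises in the amino acid response was not tested.

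Cytosolic aminoacyl-tRNA synthetases, which charge tRNAs with amino acids, rose in 7 of 20 cases and fell in 0. *Wars*, for tryptophan, was measured at 53.4, 58.7 and 56.1 CPM in the DMSO libraries and 86.2, 127 and 84.2 CPM in the XAV939 libraries (log2 fold change 0.80 ± 0.11, adjusted p = 2.36e-04). *Lars*, for leucine, was measured at 126, 146 and 132 CPM in the DMSO libraries and 191, 213 and 176 CPM in the XAV939 libraries (log2 fold change 0.52 ± 0.09, adjusted p = 0.00115). *Mars1*, for methionine, had a log2 fold change of 0.40 ± 0.10 (adjusted p = 0.0123, or 0.0535 without the pairing), and *Wars* overlaps *Wdr25* and *Mars1* overlaps *Ddit3*. The ranges of the 3 genes were separate. The 7 rises became 2 without the pairing, 4 without a count filter, 4 with the 6 libraries alone, 11 with an offset for GC content and length, 3 without DMSO replicate 1, 2 without DMSO replicate 3, 3 without XAV939 replicate 1, 4 without XAV939 replicate 2, 2 without replicate 1, 3 without replicate 3 and 4 by DESeq2 without the pairing.

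Targets of p53 fell in 10 of 22 cases (45.5%) and rose in 2 (9.09%), against 17.4% and 16% of all genes. *Pmaip1*, which encodes the death-promoting protein NOXA, was measured at 5.76, 5.33 and 9.93 CPM in the DMSO libraries and 1.51, 0.938 and 2.28 CPM in the XAV939 libraries (log2 fold change -2.14 ± 0.17, adjusted p = 4.67e-06). *Plk2*, a kinase of the stress response, was measured at 95, 76.7 and 104 CPM in the DMSO libraries and 60.7, 42.3 and 63.5 CPM in the XAV939 libraries (log2 fold change -0.74 ± 0.08, adjusted p = 6.33e-05). *Sesn1*, a growth restraint gene, rose from 14.1, 16.6 and 13.1 CPM with DMSO to 22.7, 27 and 19.3 CPM with XAV939 (log2 fold change 0.65 ± 0.10, adjusted p = 6.08e-04). *Fas*, a death receptor, rose by 0.31 ± 0.09 (adjusted p = 0.021, or 0.255 without the pairing), with overlapping ranges. The 10 falls became 6 without replicate 1.

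Genes of the ribosome and of respiration were higher by small amounts, and these calls were the most dependent on the pairing. Of 76 cytosolic ribosomal proteins 39 rose and 0 fell, and all 76 had a positive log2 fold change, with a median of 0.31. *Rps26* was measured at 490.2, 622 and 335 CPM in the DMSO libraries and 706, 888 and 468 CPM in the XAV939 libraries (log2 fold change 0.51 ± 0.11, adjusted p = 0.00575, or 0.188 without the pairing). *Rpl38* was measured at 201, 264 and 147 CPM in the DMSO libraries and 280.0, 365 and 205 CPM in the XAV939 libraries (log2 fold change 0.47 ± 0.11, adjusted p = 0.00677, or 0.193 without the pairing). *Rpl36* was measured at 197, 236 and 147 CPM in the DMSO libraries and 239.6, 340.4 and 229 CPM in the XAV939 libraries (log2 fold change 0.49 ± 0.12, adjusted p = 0.00813, or 0.115 without the pairing). In these 3 genes replicate 2 was the highest and replicate 3 the lowest library of each condition, so the conditions overlapped while each pair rose. Only 1 of the 76 genes had all XAV939 libraries above all DMSO libraries, against 2275 of all 13873 genes. The 39 rises became 0 without the pairing, 2 by DESeq2 without the pairing, 15 with an offset for GC content and length, 9 without DMSO replicate 1, 64 without DMSO replicate 2, 6 without DMSO replicate 3, 20 without XAV939 replicate 1, 8 without replicate 1, 72 without replicate 2 and 13 without replicate 3. Ribosomal protein genes have many processed copies in the genome, to which reads could be lost.

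Of 75 mitochondrial ribosomal proteins 17 rose (22.7%) and 0 fell, against 16% and 17.4% of all genes, with a median of 0.20. *Mrpl23* was measured at 23.5, 25.1 and 16.9 CPM in the DMSO libraries and 32.7, 33.5 and 26.5 CPM in the XAV939 libraries (log2 fold change 0.51 ± 0.10, adjusted p = 0.00197, or 0.0586 without the pairing). *Mrpl42* had a log2 fold change of 0.46 ± 0.10 and *Mrpl2*, which overlaps *Klc4*, one of 0.56 ± 0.12, and XAV939 values exceeded all DMSO values in the 3 genes. The 17 rises became 2 without the pairing, 4 by DESeq2 without the pairing, 7 with the 6 libraries alone, 5 without DMSO replicate 1, 34 without DMSO replicate 2, 5 without DMSO replicate 3, 7 without XAV939 replicate 1, 26 without XAV939 replicate 2, 9 without XAV939 replicate 3, 5 without replicate 1, 45 without replicate 2 and 3 without replicate 3.

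Ribosome biogenesis genes, which act in the nucleolus, rose in 17 of 38 cases with 0 falls. In 14 of the 38 all XAV939 libraries lay above all DMSO libraries, against 2275 of all 13873 genes. *Dkc1*, the pseudouridine synthase dyskerin, which overlaps *Mpp1*, was measured at 14.6, 16.8 and 17.6 CPM in the DMSO libraries and 26.9, 27.7 and 24.4 CPM in the XAV939 libraries (log2 fold change 0.69 ± 0.10, adjusted p = 3.38e-04). *Rrs1* and *Rrp9*, assembly factors of the ribosomal subunits, had log2 fold changes of 0.58 ± 0.09 and 0.60 ± 0.10. Without the pairing 7 of the 17 rises were left. The count was 11 by DESeq2 without the pairing, 11 with the 6 libraries alone, 10 without DMSO replicate 1, 6 without replicate 1 and 10 without replicate 3.

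In the respiratory chain 13 of 37 subunits and assembly factors of complex I rose and 1 fell, with a median of 0.24. *Ndufs8* was measured at 41.4, 47.3 and 27.9 CPM in the DMSO libraries and 57, 82.1 and 39.9 CPM in the XAV939 libraries (log2 fold change 0.60 ± 0.13, adjusted p = 0.00532, or 0.109 without the pairing). *Ndufa2*, which overlaps *Tmco6*, and *Ndufa6* rose by 0.55 ± 0.12 (adjusted p = 0.00566, or 0.13 without the pairing) and 0.38 ± 0.09 (adjusted p = 0.00782, or 0.228 without the pairing). *Ndufv3* was the member that fell (log2 fold change -0.57 ± 0.12, adjusted p = 0.00334, or 0.0541 without the pairing). All 4 had overlapping ranges. The 13 rises became 0 without the pairing, 2 by DESeq2 without the pairing, 7 with the GC and length offset, 7 without DMSO replicate 1, 21 without DMSO replicate 2, 3 without DMSO replicate 3, 5 without replicate 1, 26 without replicate 2 and 2 without replicate 3. In complexes III and IV 6 of 19 genes rose, in ATP synthase 3 of 15 and in the tricarboxylic acid cycle 5 of 22, with 0 falls in each, against 16% and 17.4% of all genes. None of these calls was left without the pairing. With the GC and length offset complexes III and IV had 1 rise and 4 falls, so their direction turned. When libraries were left out their rises numbered 1 to 10, with 1 without DMSO replicate 3, 2 without DMSO replicate 1, 2 without XAV939 replicate 2, 1 without replicate 1, 1 without replicate 3 and 10 without replicate 2. The rises in ATP synthase then numbered 0 to 11, with 0 without DMSO replicates 1 or 3, 1 without XAV939 replicate 1, 8 without DMSO replicate 2 and 11 without replicate 2. Those in the tricarboxylic acid cycle numbered 0 to 6, with 0 without DMSO replicates 1 or 3, 2 without XAV939 replicate 1 and 3 without DMSO replicate 2 or XAV939 replicates 2 or 3, and they were 8 with upper-quartile scaling and 1 with the 6 libraries alone.

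**Figure D5:**
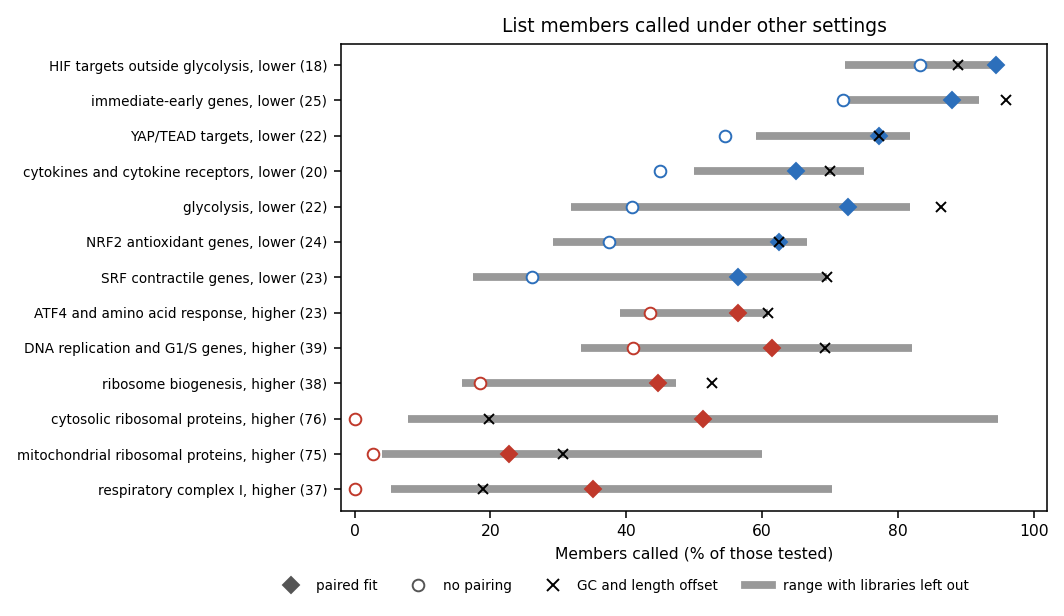
Percentage of the tested members called in the direction named, for 13 gene lists, with the paired fit (diamonds), without the pairing (circles), with an offset for GC content and length (crosses) and over all fits that left out libraries (grey bars). With libraries left out 13 to 17 of 18 HIF targets, 18 to 23 of 25 immediate-early genes and 13 to 18 of 22 YAP/TEAD targets were called lower, whereas cytosolic ribosomal proteins ranged from 6 to 72 of 76 genes over the fits with libraries left out and had 0 without the pairing.

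Of 39 genes of DNA replication and the G1/S transition 24 rose and 1 fell, with a median of 0.37. *Mcm2*, a subunit of the replicative helicase, was measured at 36.5, 38.9 and 43.4 CPM in the DMSO libraries and 59.9, 95.7 and 70.0 CPM in the XAV939 libraries (log2 fold change 0.91 ± 0.14, adjusted p = 5.29e-04). *Mcm5*, another subunit, was measured at 33.6, 35.3 and 35.1 CPM in the DMSO libraries and 48.5, 73.7 and 55.4 CPM in the XAV939 libraries (log2 fold change 0.76 ± 0.12, adjusted p = 8.04e-04). *Tk1*, thymidine kinase, which overlaps *Afmid*, was measured at 24.8, 26.2 and 21.9 CPM in the DMSO libraries and 41, 45.5 and 38.9 CPM in the XAV939 libraries (log2 fold change 0.78 ± 0.12, adjusted p = 4.30e-04). Values of the 3 genes were separate, and *Ccne2*, which overlaps *Ints8*, was the member that fell (log2 fold change -0.40 ± 0.12, adjusted p = 0.0243, or 0.317 without the pairing). The 24 rises became 16 without the pairing, 15 without DMSO replicate 1, 13 without replicate 1 and 14 without replicate 3. A test against a fold change of 1.5 left 0 of them. The E2F element TTTCCCGC lay on either strand in the window of 5 of 31 members (16.1%). It lay in 2.29% of all tested genes with a window and in 1 of 36 G2/M genes (2.78%). These shares count members whether called or not.

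Of 44 genes of G2 and mitosis 5 rose (11.4%) and 7 fell (15.9%), shares under the 16% and 17.4% of all genes, with a median of 0.07. The difference between this list and that of DNA replication was not tested. *Aurka*, a mitotic kinase that overlaps *Cstf1*, was measured at 33.9, 33.7 and 39.4 CPM in the DMSO libraries and 18.8, 16.3 and 23 CPM in the XAV939 libraries (log2 fold change -0.89 ± 0.10, adjusted p = 4.21e-05). *Cenpe*, a kinetochore motor, was measured at 29.2, 26.1 and 55 CPM in the DMSO libraries and 18.3, 14.2 and 26.4 CPM in the XAV939 libraries (log2 fold change -0.88 ± 0.11, adjusted p = 1.04e-04, or 0.0679 without the pairing). *Hmmr* had a log2 fold change of -0.64 ± 0.09 (adjusted p = 3.04e-04, or 0.0828 without the pairing). *Ccnb2*, a mitotic cyclin, was measured at 16.4, 19.1 and 17.1 CPM in the DMSO libraries and 27.9, 30.1 and 28.9 CPM in the XAV939 libraries (log2 fold change 0.72 ± 0.12, adjusted p = 0.00109). *Foxm1*, the factor that drives mitotic genes, was measured at 19.9, 20.2 and 23.8 CPM in the DMSO libraries and 29.7, 32.5 and 35.1 CPM in the XAV939 libraries (log2 fold change 0.61 ± 0.11, adjusted p = 0.0012), and *Ncapd2*, a condensin subunit, rose by 0.45 ± 0.09 (adjusted p = 0.00391, or 0.061 without the pairing). Genes of this list therefore did not share a direction. Over the fits that left out libraries the rises numbered 3 to 15, with 3 without DMSO replicate 1, 3 or XAV939 replicates 1 or 3, 11 without DMSO replicate 2, 8 without XAV939 replicate 2 and 15 without replicate 2, and the falls 3 to 7, with 3 without DMSO replicate 1 or XAV939 replicates 1 or 3. Without the pairing 2 rose and 1 fell, with the GC and length offset 11 rose, with upper-quartile scaling 4 fell, and with the 6 libraries alone 3 rose and 4 fell.

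Among 15 D cyclins, cyclin-dependent kinase inhibitors and RB family genes 5 fell (33.3%) and 2 rose (13.3%). The shares of all genes were 17.4% and 16%. *Cdkn1a*, which encodes the cell cycle inhibitor p21 and is a p53 target, was measured at 713, 539 and 523 CPM in the DMSO libraries and 402, 280.1 and 373 CPM in the XAV939 libraries (log2 fold change -0.75 ± 0.12, adjusted p = 5.28e-04). *Rb1*, which overlaps *Lpar6*, was measured at 36.2, 30.0 and 39 CPM in the DMSO libraries and 22.4, 13.6 and 27.8 CPM in the XAV939 libraries (log2 fold change -0.75 ± 0.16, adjusted p = 0.00413). *Ccnd3*, which overlaps *Bysl*, had a log2 fold change of -0.44 ± 0.10, and no range overlapped. *Rbl1* and *Ccnd2* rose, by 0.33 ± 0.09 (adjusted p = 0.0183, or 0.275 without the pairing) and 0.25 ± 0.09 (adjusted p = 0.0457, or 0.152 without the pairing). The 5 falls became 3 without the pairing, 3 without DMSO replicate 1, 3 without DMSO replicate 2, 3 without replicate 1 and 3 by DESeq2 without the pairing, and the 2 rises were 0 without the pairing, 0 with the 6 libraries alone, 0 without DMSO replicate 1, 1 without DMSO replicate 3, 0 without XAV939 replicates 1 or 3 and 4 without replicate 2.

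Of 26 voltage-gated calcium channel subunits 15 were tested, and of these 7 fell and 1 rose. Beside *Cacna1h*, the auxiliary subunits *Cacnb3* and *Cacnb2* were lower, with 36, 32.7 and 25.2 CPM with DMSO and 16, 14.9 and 15.5 CPM with XAV939 for *Cacnb3* (log2 fold change -1.01 ± 0.11, adjusted p = 5.48e-05) and 6.19, 4.51 and 6.32 CPM with DMSO and 2.45, 2.67 and 2.78 CPM with XAV939 for *Cacnb2* (log2 fold change -1.10 ± 0.15, adjusted p = 2.27e-04). *Cacna1a*, the pore of a neuronal channel, rose (log2 fold change 0.48 ± 0.15, adjusted p = 0.029, or 0.0624 without the pairing). Of 93 potassium channel genes 39 were tested, with 10 higher (25.6%) and 11 lower (28.2%), against 16% and 17.4% of all genes. *Kcnj15*, an inward rectifier, and *Kcne4*, an accessory subunit, had log2 fold changes of -1.64 ± 0.17 and -1.07 ± 0.12 (adjusted p = 7.04e-05 for *Kcne4*, or 0.129 without the pairing). *Kcns1*, *Kcnk1* and *Kcnt2* rose, by 0.82 ± 0.12, 0.96 ± 0.15 and 1.47 ± 0.23. Among the tested potassium channels the directions were thus divided, as they were among all genes tested. Of the members named here all but *Kcne4* had separate ranges. The 10 rises became 6 without the pairing, 5 with the 6 libraries alone, 6 without DMSO replicate 3, 6 without XAV939 replicate 2 and 6 by DESeq2 without the pairing, and the 11 falls became 7 when at least 10 counts were asked of every library.

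Cartilage genes are given briefly. Of 20 genes of the cartilage matrix list 15 rose and 0 fell, with a median of 0.64. *Acan*, which encodes the proteoglycan aggrecan, was measured at 569.5, 889.7 and 835 CPM in the DMSO libraries and 1413, 2372 and 1519 CPM in the XAV939 libraries (log2 fold change 1.19 ± 0.13, adjusted p = 5.52e-05). *Chad*, which overlaps *Acsf2*, and *Col9a3*, which overlaps *Tcfl5*, rose by 1.22 ± 0.11 and 1.17 ± 0.11, with ranges apart in all 3 genes. Without the pairing 8 of the 15 rises were left. Of 20 genes of hypertrophy and mineralization 8 rose and 3 fell. *Col10a1*, the collagen of hypertrophic cartilage, which overlaps *Nt5dc1*, was measured at 16.4, 14.2 and 16.4 CPM in the DMSO libraries and 42.6, 34 and 45.5 CPM in the XAV939 libraries (log2 fold change 1.37 ± 0.09, adjusted p = 1.76e-06). *Panx3*, a channel of prehypertrophic chondrocytes, was measured at 29.4, 35.9 and 24.2 CPM in the DMSO libraries and 119, 110.3 and 94.1 CPM in the XAV939 libraries (log2 fold change 1.86 ± 0.10, adjusted p = 8.98e-07). *Bglap*, an osteocalcin gene with near-identical copies, rose by 1.96 ± 0.17. *Phospho1*, a phosphatase that starts mineralization, was measured at 69, 55.1 and 49.9 CPM in the DMSO libraries and 20.4, 24.4 and 22 CPM in the XAV939 libraries (log2 fold change -1.38 ± 0.13, adjusted p = 1.33e-05), and *Enpp1* and *Runx3* had log2 fold changes of -0.73 ± 0.09 (adjusted p = 1.54e-04, or 0.0547 without the pairing) and -0.67 ± 0.09. Hypertrophy genes therefore included rises and falls with separate ranges. Of 32 matrix proteases and inhibitors 15 fell and 2 rose. *Adamts1*, *Plat* and *Plaur*, the last 2 of the plasminogen activator system, had log2 fold changes of -1.13 ± 0.13, -1.06 ± 0.12 and -0.90 ± 0.10, while *Mmp9* and *Adamts10* rose by 0.87 ± 0.10 and 0.55 ± 0.10.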

How the data were processed

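Polyadenylated RNA of mouse articular chondrocytes was sequenced from libraries made with a stranded TruSeq mRNA kit. According to the submitters' processing notes the tools of the authors were Trimmomatic 0.32 for trimming, TopHat2 2.0.13 for alignment to mm10 and HTSeq 0.6.1p1 for gene counts. The deposited values are raw counts per Entrez gene ID, of which 24051 of 24134 matched a symbol. The annotation and strand setting of the counting are not given in the sources used here, and without strand reads of overlapping genes cannot be told apart. The drug table of 9 libraries was used, and the siRNA table was not used here. Reads carry no molecular identifiers, so bounds from the floor of 3 counts cover counting error only.

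The test was that of edgeR 4.0.16 in R 4.3.3 (filterByExpr, TMM, glmQLFit and glmQLFTest, replicate number as a block, Benjamini-Hochberg adjustment over 13873 genes, prior count of 2 for log2 values). Libraries of the same replicate number deviated together from their group means, with correlations across genes of 0.143 to 0.553 in all 9 pairs. All were above the 0.1 taken as the limit, and different numbers reached at most 0.318. The lowest was that of DMSO and XAV939 replicate 2. DMSO replicate 2 correlated more with XAV939 replicate 1 (0.318) and IWR-1 replicate 1 (0.316). This pairing follows the numbers in the labels, which name no shared animal or day, and the data bear it out least for replicate 2. Members and lists were chosen with earlier results of these data known, so they are described by counts and medians and not tested as lists. The genes named are *Tnks* and *Tnks2*, the 12 largest changes and 5 smallest p-values each way, up to 3 called members each way per list described, and every member of lists with 12 or fewer genes tested. Some genes that meet this rule are not reported here. The largest changes were taken among called genes at 1 CPM or more in the higher group and of the same sign in all 3 pairs. Cell type marker lists are given as summed CPM, with some of their members named. *Chac1*, *Hif1a* and *Prg4* were chosen after their values were seen. Alternatives were DESeq2 1.42.0, other scaling and filters, no pairing, fewer libraries, a fold threshold and a GC and length offset. Promoter windows are those of RefSeq for 10970 of the tested genes, with a chromosome left out, and motif shares are of genes with a window. The paired fit was tested on simulated counts with known changes.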

Additional observations from a re-analysis of the deposited data

How the results depend on the processing

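Without the replicate block 2416 genes were called in place of 4630, 1050 higher and 1366 lower, and 1 gene passed the limits of the study in place of 97. DESeq2 without the replicate block, an alternative chosen after seeing the data, called 2922 genes, 1240 of them higher, with 197 past the limits. With the 6 libraries alone 1376 genes rose and 0 genes passed the limits by edgeR. A test against a fold change of 1.5 (glmTreat) called 820 genes, 267 higher and 553 lower. Of the falls it left 8 of 17 HIF targets, 11 of 22 immediate-early genes and 7 of 17 YAP/TEAD targets. Of the rises it left 1 of 13 in the amino acid response. It left 0 of 24 rises in DNA replication, 0 of 17 in ribosome biogenesis and 0 of 39 in cytosolic ribosomal proteins. The limits were passed by 221 genes without a filter and by 220 with DESeq2. With libraries left out, singly or all of 1 replicate number, between 2093 and 5996 genes were called, 894 to 2915 higher and 1199 to 3081 lower, and 18 to 164 passed the limits. The calls were 2789 without DMSO replicate 1, 3024 without XAV939 replicate 1, 2093 without replicate 1 and 2919 without replicate 3. The limits were passed by 26 genes without DMSO replicate 1, 19 without DMSO replicate 3, 18 without XAV939 replicate 1, 57 without replicate 3 and 164 without replicate 2. With fewer libraries the fit has fewer degrees of freedom, and the cause of the other differences was not tested. Upper-quartile scaling raised the median of all genes from 0.016 to 0.066 and the share of rises among calls from 47.9% to 57.4%.

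Under these alternatives 5050 values were obtained for 267 of the genes named above. Of these values 4591 kept the direction and the side of the threshold, and 417 kept the direction and lost the call. A further 20 gained a call and 22 reversed. The reversals were confined to 6 genes that were not called. With the GC and length offset *Fgf2* stood at 0.063, *Id2* at -0.0031 and *Znrf3* at 0.025 on the log2 scale. With libraries left out, their log2 fold changes ran from -1.21 to 0.32 for *Fgf18*, -0.58 to 0.22 for *Fgf2*, -0.11 to 0.19 for *Id2*, -0.058 to 0.22 for *Smad6*, -0.40 to 0.12 for *Tnfrsf19* and -0.15 to 0.070 for *Znrf3*. Of 5013 list values under these alternatives 4107 were rated as unchanged. These values are the counts of rises, the counts of falls and the median log2 fold changes of the lists. A count was rated as unchanged within 1.5 times the value given. A median was so rated when it moved by no more than the standard deviation of the medians of the replicate pairs. Depth limits genes near 1 CPM, where the standard error of a log2 fold change often passed 0.2.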

Other observations

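The groups below were read by the same paired test, and their shares stand against 16% of all genes that rose and 17.4% that fell. In the circadian clock list 4 of 19 genes rose (21.1%) and 7 fell (36.8%). *Per3*, a repressor of the clock, was measured at 11, 10.9 and 13 CPM in the DMSO libraries and 24.9, 26.2 and 24.3 CPM in the XAV939 libraries (log2 fold change 1.12 ± 0.11, adjusted p = 1.76e-05). *Dbp*, an output factor that overlaps *Sphk2*, was measured at 8.51, 8.62 and 5.75 CPM in the DMSO libraries and 17.5, 15.8 and 15.1 CPM in the XAV939 libraries (log2 fold change 1.09 ± 0.12, adjusted p = 5.20e-05). *Rora*, a nuclear receptor that activates clock genes, and the repressors *Bhlhe40* and *Bhlhe41* had log2 fold changes of -1.13 ± 0.09, -0.98 ± 0.09 and -1.41 ± 0.13. The 5 genes had separate ranges, and *Nr1d2* rose with overlapping ranges (log2 fold change 0.40 ± 0.10, adjusted p = 0.0111, or 0.1 without the pairing). The 4 rises became 2 without DMSO replicate 1 and 2 without XAV939 replicate 1, and the 7 falls became 12 without replicate 2.

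Guidance molecules were divided. Of 29 semaphorins, plexins and neuropilins 7 rose (24.1%) and 9 fell (31%). *Sema3d*, a secreted repellent, was measured at 6.68, 7.51 and 11.2 CPM in the DMSO libraries and 0.916, 1.54 and 1.85 CPM in the XAV939 libraries, 5.97-fold lower (log2 fold change -2.58 ± 0.16, adjusted p = 1.74e-06). *Sema4g* and *Sema5a* had log2 fold changes of -1.69 ± 0.12 and -1.05 ± 0.10. *Plxnb1*, a semaphorin receptor, was measured at 28.4, 38.9 and 39.6 CPM in the DMSO libraries and 73.8, 125 and 75.4 CPM in the XAV939 libraries (log2 fold change 1.34 ± 0.13, adjusted p = 1.77e-05). *Sema4a* and *Sema6a* rose by 1.03 ± 0.14 and 0.87 ± 0.15 (adjusted p = 0.00111 for *Sema6a*, or 0.0621 without the pairing). The 9 falls were 15 without replicate 2. Of 19 ephrins and Eph receptors 5 rose (26.3%) and 4 fell (21.1%). The ligand *Efna3* was measured at 4.51, 3.78 and 3.99 CPM in the DMSO libraries and 1.46, 1.09 and 1.33 CPM in the XAV939 libraries (log2 fold change -1.66 ± 0.16, adjusted p = 1.92e-05). *Efnb2* and *Efna1* had log2 fold changes of -0.86 ± 0.12 and -0.39 ± 0.09 (adjusted p = 0.0072 for *Efna1*, or 0.0796 without the pairing), whereas *Efnb1* and *Ephb3* rose by 0.74 ± 0.09 and 0.45 ± 0.10. The 4 falls were 2 without the pairing, 2 without DMSO replicate 1 and 2 without XAV939 replicate 1, and the 5 rises were 2 without replicate 1.

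Of 28 amino acid transporters 9 rose (32.1%) and 6 fell (21.4%). *Slc1a5*, a glutamine carrier, was measured at 64.2, 103 and 81.4 CPM in the DMSO libraries and 159, 237 and 159.8 CPM in the XAV939 libraries (log2 fold change 1.16 ± 0.11, adjusted p = 1.76e-05). *Slc7a3*, a carrier of cationic amino acids that overlaps *Snx12*, and *Slc7a5*, a carrier of large neutral ones, rose by 1.30 ± 0.11 and 0.61 ± 0.10. *Slc1a3*, a glutamate carrier, *Slc38a1* and *Slc38a4* had log2 fold changes of -1.13 ± 0.13, -0.84 ± 0.10 and -0.96 ± 0.15 (adjusted p = 8.31e-05 for *Slc38a1*, or 0.165 without the pairing). The 6 falls were 3 without the pairing and 3 without replicate 1.

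Of 22 collagen processing enzymes 9 fell (40.9%) and 3 rose (13.6%), or 5 with upper-quartile scaling. *Lox*, which cross-links collagen, was measured at 5242, 4122 and 5015 CPM in the DMSO libraries and 2042, 1438 and 2190.0 CPM in the XAV939 libraries (log2 fold change -1.36 ± 0.11, adjusted p = 5.36e-06). *Loxl3*, a relative that overlaps *Htra2*, was measured at 168, 170.0 and 168 CPM in the DMSO libraries and 345, 469 and 355 CPM in the XAV939 libraries (log2 fold change 1.20 ± 0.12, adjusted p = 1.88e-05). These relatives changed in opposite directions with separate ranges. *Loxl2* and *P4ha2*, which also belong to the HIF list, had log2 fold changes of -0.87 ± 0.09 and -0.74 ± 0.10, and *Pcolce2* and *Loxl4* rose by 1.34 ± 0.11 and 0.66 ± 0.13.

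Of 25 genes of cholesterol synthesis and uptake 8 rose (32%) and 2 fell (8%). *Dhcr7*, the last enzyme of the pathway, was measured at 28.8, 29.7 and 22.1 CPM in the DMSO libraries and 42.5, 45.6 and 34.9 CPM in the XAV939 libraries (log2 fold change 0.61 ± 0.09, adjusted p = 3.87e-04). *Ebp* and *Insig1* rose by 0.43 ± 0.09 and 0.39 ± 0.08, and *Stard4* and *Sqle* had log2 fold changes of -0.65 ± 0.14 (adjusted p = 0.00401, or 0.0557 without the pairing) and -0.37 ± 0.10. The 8 rises were 3 without the pairing, 5 without DMSO replicate 3, 5 without XAV939 replicate 1, 2 without replicate 1 and 5 without replicate 3.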
